A study of Bos indicus with 11 samples.

Results

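The genes described here are the receptors and ligands of platelet-derived growth factor (PDGF) together with genes that mark pericytes, measured by RNA-Seq in endometrial biopsies of beef cows. Members were chosen by name, as the entries of the deposited table whose gene symbol equalled PDGFRB, PDGFRA, PDGFA, PDGFB, PDGFC, PDGFD, RGS5, NOTCH3, CSPG4 or MCAM. Of these 10 genes, 9 were found among the 24616 entries of the table, each once, and all 9 were among the 15081 genes that averaged 5 or more normalized counts and were tested. NOTCH3 was not analysed here. The list was drawn up with the difference between the groups already known, so the differences given below for its members are descriptions and carry no test.

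Pericytes are the cells that wrap capillaries and small venules, and with the smooth muscle of larger vessels they are called mural cells. Endothelial cells of growing vessels release PDGF-BB, the product of PDGFB, which binds the receptor PDGFRB on mural cells and draws them to the vessel wall. PDGFRA, the related receptor, is borne mainly by fibroblasts and other stromal cells, and in the uterus PDGFRB is also made by stromal fibroblasts, so no single gene of the list is exclusive to pericytes. Vessels and stroma of the endometrium are remodelled during each oestrous cycle.

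Healthy, multiparous Nelore (*Bos indicus*) cows were synchronized with a prostaglandin F2α analogue and inseminated at estrus, and the uterine horn opposite the corpus luteum was biopsied on day 6 after AI. By the diagnosis made on day 30, 6 of the cows used here were pregnant (P) and 5 were non-pregnant (NP). All cows of both groups received the same treatment, and they had been selected for similar plasma progesterone and for ovulation soon after AI, so the groups differ by outcome and not by anything applied to them. Each biopsy is 1 cow, sampled in the horn that would not hold the embryo. Cows are named by their label, such as P617, and P617 was kept in the P group as its label gives it although 1 of the study's materials names this cow as non-pregnant. The question put to the table was how the PDGF system and the mural cell genes differed between P and NP endometrium, and how they moved from cow to cow with PECAM1, an endothelial adhesion molecule, and with the joint entry "ACTG2; ACTA2", which carries the smooth muscle actins.

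Each value is a normalized count, that is, the reads counted on a gene divided by a size factor for the cow. Reads on genes numbered 9290949 to 13508711 in the P cows and 9783673 to 13569085 in the NP cows. Differences are NP minus P on the scale of log2(normalized count + 1), with the standard error (SE) from limma, which fits a linear model gene by gene and steadies each gene's spread with that of the others. A value of 1 on that scale is a doubling. The biopsies were not alike in makeup. The summed level of the smooth muscle markers was 823200 in P617 and 580400 in P1541, against 48770 to 333200 in the other 9 cows, and that of the epithelial markers was 3218 in P617 and 11860 in P1541, against 15270 to 33620. In P904 the summed endothelial markers reached 18160, against 6127 to 11120 in the other P cows. Results that lean on these 3 cows are given with and without them.

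*PDGFRB* was higher in every NP cow than in any P cow. In the P cows the normalized count was 1235 at the lowest, 1509 at the median and 1797 at the highest. In the NP cows it was 3119 in NP238, 2428 in NP638, 2427 in NP856, 2677 in NP2541 and 2657 in NP2810. The highest P cow, P904, thus lay below the lowest NP cow, NP856, and the groups did not overlap. This separation depends on the label of P617, since its value of 1678 lay below that of P904, and without P617 the groups did not overlap and the log2 difference was 0.85 (SE 0.120). Group means were 1518 ± 207 (SD, n = 6) in P and 2662 ± 283 (SD, n = 5) in NP, a log2 difference of 0.82 (SE 0.118) or 1.76-fold, and between 1207 and 3414 reads stood behind each value. In bulk tissue, fewer cells of a type and less RNA per cell cannot be told apart.

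*PDGFRA* did not follow its partner receptor. In the P cows its normalized count ran from 1680 through a median of 1826 to 5003, and 4 of the 6 cows fell between 1680 and 1831, with P1541 at 3744 and P617 at 5003. The NP cows stood at 2048 in NP238, 3531 in NP638, 1881 in NP856, 2748 in NP2541 and 2277 in NP2810. The groups overlapped, both P617 and P1541 lying above every NP cow and the other P cows below every NP cow. Over all cows the log2 difference was 0.03 (SE 0.307), and without P617 and P1541, the cows rich in smooth muscle transcripts, it was 0.45 (SE 0.169). Within a cow, the ratio of *PDGFRB* to *PDGFRA* was 0.330 to 0.982 in P (median 0.781) and 0.688 to 1.52 in NP (median 1.17), a log2 difference of 0.79 with overlapping groups.

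Among the ligands no gene separated the groups. *PDGFB*, the ligand made mainly by endothelium, had a normalized count of 199 at the lowest, 248 at the median and 345 at the highest in the P cows. The NP cows had 237.7 in NP238, 294 in NP638, 329 in NP856, 384 in NP2541 and 376 in NP2810. NP2541 and NP2810 lay above every P cow, while the other 3 NP cows lay within the P range. The log2 difference was 0.34 (SE 0.174), or 1.26-fold.

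*PDGFA*, whose product binds PDGFRA, overlapped throughout. P cows ranged from 498 to 687 (median 654) and NP cows from 456 to 651 (median 613), and the log2 difference was -0.15 (SE 0.127). *PDGFC* and *PDGFD* encode ligands that are secreted in a latent form and act only once a protease has removed their CUB domain. For *PDGFC* the normalized counts were 175 to 412 in P and 193 to 352 in NP, a log2 difference of -0.08 (SE 0.232). *PDGFD*, the latent ligand that acts on PDGFRB, covered 262 to 925 in P and 320 to 700 in NP (log2 difference 0.15, SE 0.300). Its highest value belonged to P617, and without P617 and P1541 the difference was 0.49 (SE 0.223). Over the same 9 cows the *PDGFC* difference was 0.02.

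*RGS5*, a regulator of G-protein signalling and one of the most used pericyte markers, was higher in NP with a single exception. The P cows had normalized counts of 778 in P617, 2910 in P904, 724 in P1541, 863 in P1631, 993 in P1753 and 1115 in P2396. The NP cows had 1690 in NP238, 2235 in NP638, 1968 in NP856, 2220 in NP2541 and 2452 in NP2810. Thus 5 of the 6 P cows lay below every NP cow, and P904, the P cow with the highest endothelial markers, lay above every NP cow. The log2 difference was 0.96 (SE 0.310), or 1.94-fold. It was 1.25 without P904 and 0.70 (SE 0.309) without P617 and P1541. The part of the endothelial content of P904 in its *RGS5* value was not tested.

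*CSPG4*, which encodes the NG2 proteoglycan of pericytes and other immature mesenchymal cells, split the P cows. It stood at 612 in P617, 277 in P904, 705 in P1541, 230 in P1631, 261 in P1753 and 239 in P2396. The NP cows held 313 in NP238, 415 in NP638, 450 in NP856, 365 in NP2541 and 460 in NP2810. Of the P cows, 4 lay below every NP cow and P617 and P1541 above every NP cow, so that the difference over all cows was 0.20 (SE 0.310) and that without both was 0.66 (SE 0.141). *MCAM*, an adhesion molecule of mural and endothelial cells, ranged from 1121 to 2270 in P (median 1679) and from 1157 to 2338 in NP (median 1921), with a difference of 0.10 (SE 0.244) over all cows and 0.33 (SE 0.229) without P617 and P1541.

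**Figure D1:**
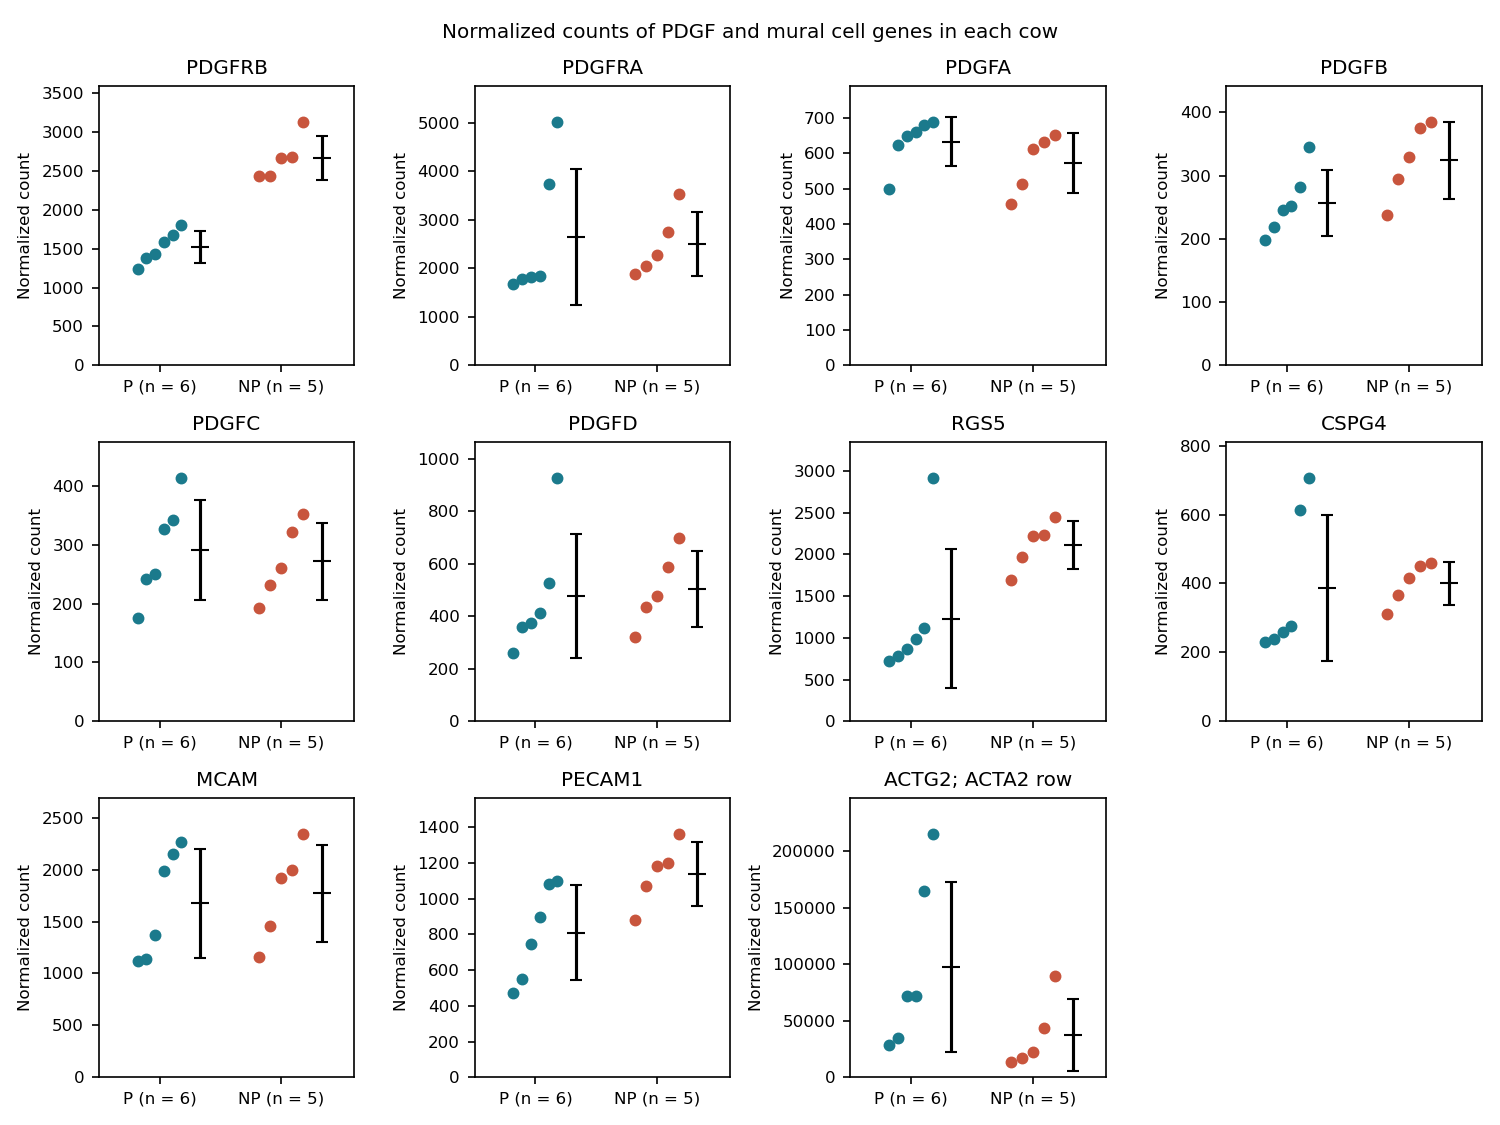
Normalized counts (y axes, linear from 0) of the 9 members and the 2 reference entries in each cow, with P cows (n = 6) in blue and NP cows (n = 5) in red, sorted by value within a group; bars are the mean ± SD. *PDGFRB* alone shows no overlap, with P at 1235 to 1797 and NP at 2427 to 3119, and *RGS5* shows 1 P cow at 2910 above all others.

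Counted together, 7 of the 9 members had a log2 difference above 0 (higher in NP) and 2, *PDGFA* and *PDGFC*, below 0, against 50.2% of the 15081 genes tested that were above 0. *PDGFRA*, at 0.03, is among the 7, although its mean normalized count was 2643 in P and 2497 in NP, and by edgeR and DESeq2 the count was 6. The median log2 difference of the members was 0.15, and that of all genes 0.0018. Without P617 and P1541 the median of the members was 0.45. The groups did not overlap for 1 member, *PDGFRB*, as for 1.09% of all genes (0.855% in that direction). By limma 0 members and 0 of the 15081 genes (0.0%) passed an adjusted p of 0.1, while 2 members, *PDGFRB* and *RGS5*, and 7.84% of all genes had an unadjusted p under 0.05 (5.49% in that direction). The share of all genes at an unadjusted p under 0.05 and higher in P was 2.35%, with 0 members. DESeq2 on the recovered reads called 1 member, *PDGFRB*, and 1.33% of all genes (1.13% higher in NP), with 9.75% at an unadjusted p under 0.05. EdgeR and limma-voom called 0 members and 0.0% of genes each, with 7.63% and 7.78% of genes at an unadjusted p under 0.05. Limma without P904 called 2 members, *PDGFRB* and *RGS5*, and 1.13% of all genes, with 10.3% at an unadjusted p under 0.05. Without P617 and P1541 it called 1 member, *PDGFRB*, and 0.113% of all genes, with 11.1% at an unadjusted p under 0.05. Since this contrast is the one by which the members were chosen, nothing is read from these counts.

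The *PDGFRB* difference moved little when the analysis was varied. It lay between 0.76 and 0.87 when any 1 of the 11 cows was left out, and it was 0.78 (SE 0.113) without both P617 and P1541. With the log2 level of *PECAM1* in the model it was 0.85 (SE 0.153), with that of the ACTG2; ACTA2 entry 0.74 (SE 0.137), and with the mean of the epithelial markers 0.82 (SE 0.114). The *RGS5* difference was 0.69 (SE 0.379), 0.63 (SE 0.338) and 0.92 (SE 0.299) in the same models. For *PDGFB* the value fell from 0.34 to 0.11 (SE 0.193) with *PECAM1* in the model. For *PDGFRA* it went the other way, from 0.03 to 0.60 (SE 0.215), with the ACTG2; ACTA2 entry in the model, and *CSPG4* and *PDGFD* moved alike, to 0.62 (SE 0.306) and 0.59 (SE 0.285).

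**Figure D2:**
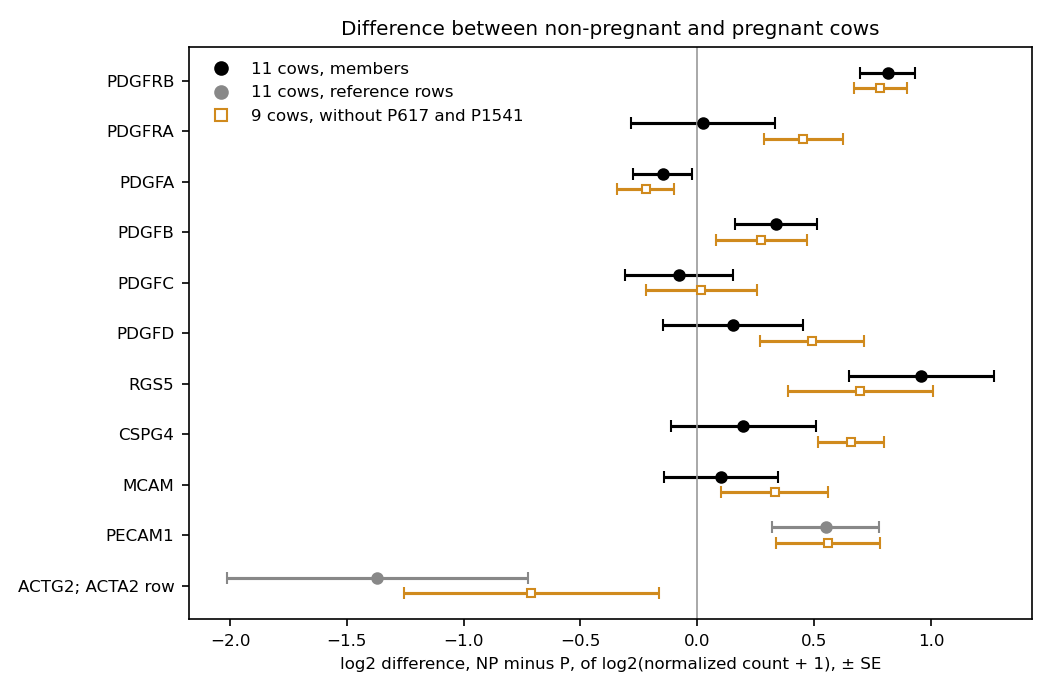
Log2 difference, NP minus P, of log2(normalized count + 1) (x axis) for each member and the reference entries (y axis), with bars of ± SE; filled circles use all 11 cows and open squares the 9 cows left without P617 and P1541. *PDGFRB* stayed at 0.82 and 0.78, while *PDGFRA* went from 0.03 to 0.45 and *CSPG4* from 0.20 to 0.66.

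*PECAM1* itself was higher in NP on average. The P cows had 472 at the lowest, 823 at the median and 1102 at the highest, and the NP cows 882 in NP238, 1069 in NP638, 1184 in NP856, 1202 in NP2541 and 1360 in NP2810. The groups overlapped, with 3 NP cows above every P cow, and the log2 difference was 0.55 (SE 0.228, adjusted p = 0.579 by limma). Relative to *PECAM1*, the excess of *PDGFRB* in NP was smaller. The ratio within a cow was 3.04 in P617, 1.66 in P904, 1.12 in P1541, 1.84 in P1631, 1.77 in P1753 and 3.04 in P2396, and in NP it ran from 1.95 to 3.54 with a median of 2.23. Only NP238 lay above every P cow, while 4 P cows lay below every NP cow. The difference of the log2 ratio was 0.27, against an SD of 0.554 among P cows and 0.341 among NP cows. It was 0.11 without P1541, 0.12 without NP238, 0.39 without P617 or P2396 and 0.22 without P617 and P1541. Over all cows the mean difference of the log2 ratio was therefore smaller than the SD of either group.

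For *RGS5* the ratio to *PECAM1* was 0.657 to 2.69 in P and 1.66 to 2.09 in NP, a log2 difference of 0.41. The spread of this log2 ratio was an SD of 0.753 in P and 0.121 in NP, and 4 P cows lay below every NP cow. For *PDGFB* the corresponding ratios were 0.198 to 0.444 in P and 0.270 to 0.320 in NP, with a difference of -0.21. Its SD was 0.433 in P and 0.0985 in NP. In both genes the NP cows lay close together on this scale and the P cows were spread on both sides of them.

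The ACTG2; ACTA2 entry holds actins of visceral and vascular smooth muscle, whose reads the table does not divide, and it varied 15.5-fold between the lowest and the highest cow. It was 215000 in P617, 28920 in P904, 165200 in P1541, 35020 in P1631, 72210 in P1753 and 71860 in P2396. In NP it was 17430 in NP238, 89880 in NP638, 22540 in NP856, 43860 in NP2541 and 13870 in NP2810. The log2 difference was -1.37 (SE 0.643, adjusted p = 0.650 by limma), with overlapping groups, and -0.71 without P617 and P1541. The ratio of *PDGFRB* to this entry was 0.00747 to 0.0622 in P and 0.0270 to 0.192 in NP, a log2 difference of 2.18 with an SD of 1.23 and 1.18, and 1.49 without P617 and P1541.

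Variation among cows of the same group was examined after the mean of each group had been removed, which keeps the contrast between P and NP out of the relation. Pearson's r and Spearman's rho were computed on the log2 scale for each of the 9 members with each of the reference entries, and p-values came from a two-sided exact permutation test over the 86400 pairings of cows within the groups, adjusted over the 18 relations. Cows did not fall into separate clusters on either entry, the widest gap being 0.286 and 0.222 of the range.

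The relation of *PDGFRB* passed the threshold with neither entry. With *PECAM1* its r was -0.16 (exact permutation p = 0.684, adjusted 0.725) and rho was -0.10 (p = 0.801, adjusted 0.961). Without P2396 and P617, the cows farthest from the median of *PECAM1*, r was -0.17 over 9 cows. Its sign was not stable, as r was -0.51 without P904, 0.15 without P1541 and 0.28 without P617 and P1541. With the ACTG2; ACTA2 entry r was -0.35 (exact permutation p = 0.323, adjusted 0.645) and rho was -0.21 (p = 0.566, adjusted 0.905). Leaving out P1541 and P617, the farthest cows here, gave -0.43 (exact permutation p = 0.260). If the group means are left in, the same coefficients are 0.51 and -0.62, values that contain the difference between P and NP.

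*PDGFRA* was the 1 member of the 9 whose relation passed the adjusted threshold of 0.1. Its r with the ACTG2; ACTA2 entry was 0.84 (exact permutation p = 0.00267, adjusted 0.0481), and its rho was 0.64 (p = 0.0480, adjusted 0.455). Without P1541 and P617, the 2 cows farthest from the median, r was 0.73 over 9 cows (exact permutation p = 0.0736, adjusted 0.369), so the call did not hold without them, and it was also lost without P617, P1541, NP638 or NP2541 alone, with r between 0.80 and 0.84. Next came *PDGFD* with 0.66 (exact permutation p = 0.0384, adjusted 0.301), *CSPG4* with 0.62 (p = 0.0668, adjusted 0.301) and *MCAM* with 0.58 (p = 0.0851, adjusted 0.306). Their rho values were 0.58, 0.46 and 0.60. Without P1541 and P617 these r values were 0.34, -0.05 and 0.30.

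*PDGFB* had the highest r with *PECAM1*, 0.60 (exact permutation p = 0.0606, adjusted 0.301), with a rho of 0.54 (p = 0.101, adjusted 0.455). It was 0.49 without P2396 and P617, 0.85 without P1541 (adjusted exact permutation p = 0.0362) and 0.88 without P617 and P1541. *RGS5* had an r of 0.36 with *PECAM1* and -0.48 with the ACTG2; ACTA2 entry, neither past the threshold (exact permutation p = 0.499 and 0.165). Without P904 these were -0.13 and -0.19, and without P1541 the first was 0.64. *MCAM* with *PECAM1* gave 0.46 (exact permutation p = 0.209, adjusted 0.537), and *PDGFA* and *PDGFC* stayed between -0.16 and 0.32 with both entries.

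**Figure D3:**
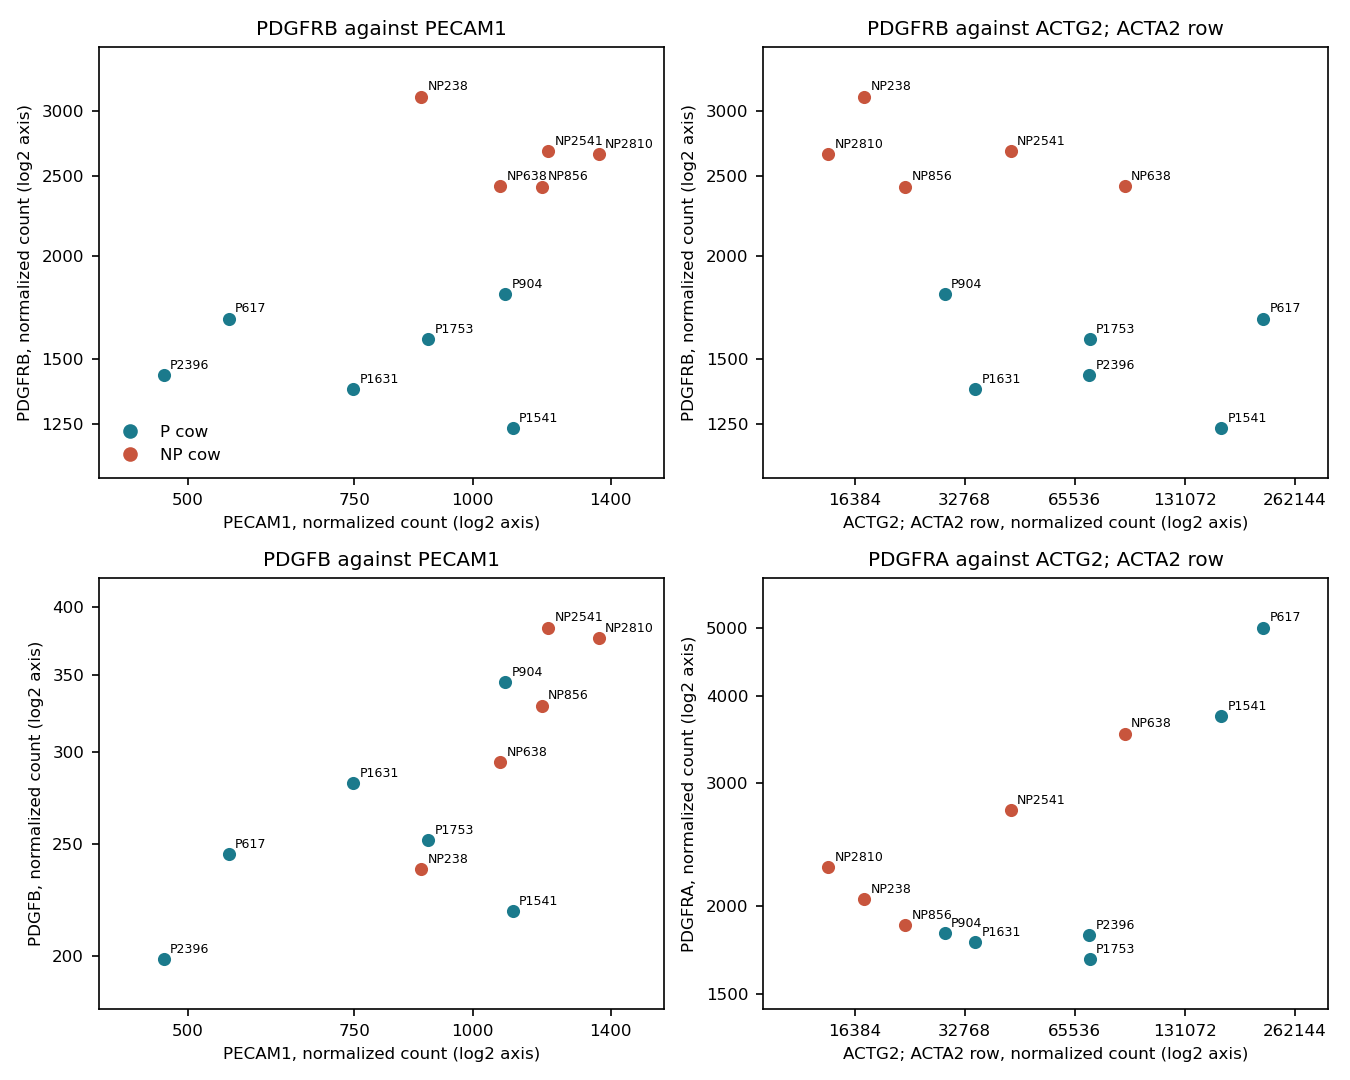
Normalized counts of each cow on log2 axes, with *PDGFRB* against *PECAM1* and the ACTG2; ACTA2 entry (upper panels), *PDGFB* against *PECAM1* and *PDGFRA* against the ACTG2; ACTA2 entry (lower panels); P cows are blue, NP cows red, and each point carries its cow. In the upper panels every NP cow lies above every P cow, though the groups share only part of each x range. *PECAM1* ran from 472 to 1102 in P and from 882 to 1360 in NP. The ACTG2; ACTA2 entry ran from 28920 to 215000 in P and from 13870 to 89880 in NP. P617 and P1541 lie at the upper right of the last panel.

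Relations among the members themselves, 36 in all and computed after the values had been seen, gave 0 past the adjusted threshold of 0.1. *PDGFRA*, *CSPG4*, *MCAM* and *PDGFD* had the highest coefficients. The r was 0.83 for *PDGFRA* with *CSPG4* (exact permutation p = 0.0397, adjusted 0.286), 0.76 with *MCAM* (p = 0.0108, adjusted 0.193) and 0.74 with *PDGFD* (p = 0.0161, adjusted 0.193), and *CSPG4* with *MCAM* gave 0.73 (p = 0.0145, adjusted 0.193). Without P617 and P1541 the first and the third of these were 0.03 and 0.18, while *PDGFRA* with *MCAM* was 0.66 and *CSPG4* with *MCAM* 0.61. *PDGFB* and *RGS5* had an r of 0.63 (exact permutation p = 0.0372, adjusted 0.286), which was 0.31 without P904. The pair of *PDGFRB* and *RGS5*, both pericyte markers, had an r of 0.46 (exact permutation p = 0.259, adjusted 0.707) that was -0.08 without P904.

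**Figure D4:**
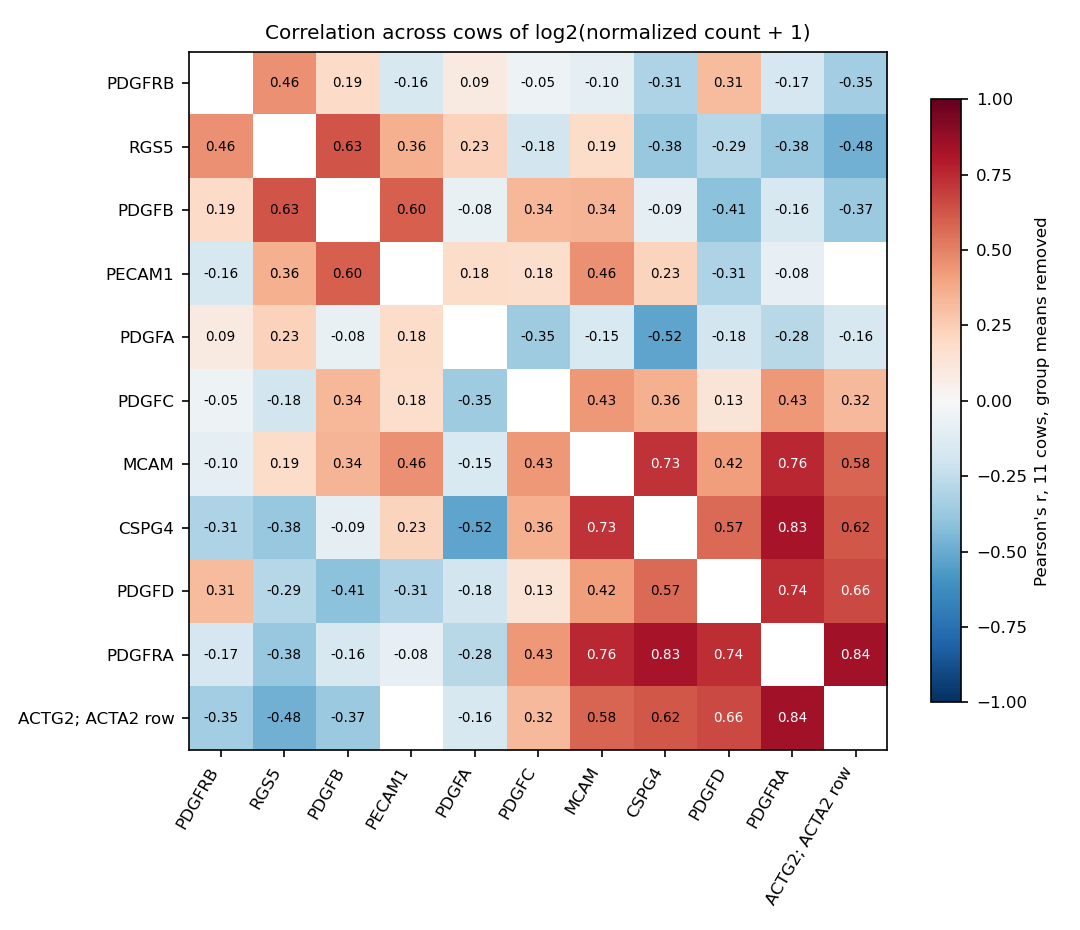
Pearson's r over 11 cows between the log2 levels of each pair of members and of each member with the reference entries, after removal of the group means (colour and number; the pair of reference entries was not computed). *PDGFRA*, *CSPG4*, *MCAM* and *PDGFD* have values of 0.42 to 0.83 with each other, and *PDGFRB* has 0.46 with *RGS5* and -0.17 with *PDGFRA*.

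Across all genes tested, those whose log2 level was most like that of *PDGFRB* over the 11 cows, group means removed, were *DIO2* with an r of 0.92, *ADRA2B* with 0.88, *MYOC* with 0.88, *MARK4* with 0.86, *HCST* with 0.85, *KLF11* with 0.85, *SLA* with 0.83, *SLC38A4* with 0.82, *RBP4* with 0.82 and *ADAMTS4* with 0.81. *DIO2* encodes the deiodinase that activates thyroid hormone, *ADRA2B* an adrenergic receptor, *KLF11* a transcription factor, *SLC38A4* an amino acid transporter, *RBP4* the plasma carrier of retinol and *ADAMTS4* a protease of the matrix. *HCST* lay at a mean of 8.56 normalized counts, where few reads stand behind a value. The same holds for the lowest cow of *DIO2*, at 3.87 normalized counts with a mean of 24.8 over all cows. These coefficients are the highest of 15080 and are given as a description with no test. Without P617 and P1541 they lay between 0.78 and 0.90, and without P904 between 0.73 and 0.88. No member of the list was among these genes, *RGS5* standing at rank 786, *PDGFD* at 1811, *PDGFB* at 3378 and *PDGFRA* at 10898.

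The genes most like *RGS5* were of another kind. They were *ERG* with an r of 0.93, *GPR116* with 0.92, *HIGD1B* with 0.91, *ACVRL1* with 0.90 and *ABCG2* with 0.90, and all lay between 0.89 and 0.94 without P617 and P1541. They lay between 0.50 and 0.69 without P904, an alternative added after the values had been seen, so their height leaned on that cow. *ERG* and *ACVRL1* are an endothelial transcription factor and an endothelial receptor, and *HIGD1B* is a gene of pericytes. *PDGFB* stood at rank 500 for likeness to *RGS5*, and *PDGFRB* at 1656.

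The other genes of the pathway were taken from lists drawn up from general knowledge, but with earlier results of these data known. Counts over these lists are therefore descriptions, and none of their genes passed the adjusted threshold in limma. For the counts of these and the later lists, 50.2% of all 15081 genes tested were above 0. By limma 5.49% had an unadjusted p under 0.05 and were higher in NP, and 2.35% were higher in P. The groups did not overlap, with NP higher, for 0.855% of all genes. Of 7 genes for ligand processing and co-receptors, 6 were higher in NP, 2 of them at an unadjusted p under 0.05, with a median log2 difference of 0.42. These were *PLAT*, tissue plasminogen activator, the protease that activates PDGF-CC, at 1.67 (SE 0.498, adjusted p = 0.372), and *PCSK6*, a proprotein convertase, at 1.22 (SE 0.299, adjusted p = 0.264). *NRP1* and *LRP1*, co-receptors, had 0.42 (SE 0.199) and 0.39 (SE 0.269). *SPARC*, which binds PDGF chains, had -0.15 (SE 0.463), and 0.35 without P617 and P1541. Of 19 genes for signalling below the receptors, 7 were higher in NP and 12 in P, with a median of -0.05. Unadjusted p-values under 0.05 belonged to *PIK3R1*, the regulatory subunit of phosphoinositide 3-kinase, at 0.65 (SE 0.234, adjusted p = 0.496), and *SLC9A3R2*, a scaffold that binds PDGF receptors, at 0.69 (SE 0.243, adjusted p = 0.482). The adaptors *SHC1* and *CRK* had 0.06 (SE 0.185) and -0.09 (SE 0.153), and *STAT3*, a transcription factor, had -0.08 (SE 0.106). Without P617 and P1541 *CRK* was at 0.06, and 11 of the 19 signalling genes were higher in NP, with a median of 0.015.

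Of 24 further mural cell genes, 18 were higher in NP, with a median of 0.30, and 6 had an unadjusted p under 0.05, 5 higher in NP and 1 in P. *ABCC9*, the sulphonylurea receptor of the mural cell potassium channel, had a difference of 1.02 (SE 0.297, adjusted p = 0.364) without overlap between the groups. *EBF1*, a transcription factor of pericytes, had 0.67 (SE 0.244, adjusted p = 0.503), and *CASQ2*, a calcium-binding protein at a mean of 9.63 normalized counts, had 2.04 (SE 0.724, adjusted p = 0.487). The other 3, and *KCNJ8*, are named after their values were seen. They were *S1PR3* at 1.17 (SE 0.434) and *NDUFA4L2* at 0.77 (SE 0.341), higher in NP, and *GJC1*, a gap junction gene shared with smooth muscle, at -0.66 (SE 0.287). *KCNJ8*, the channel partner of *ABCC9*, had 0.63 (SE 0.319). *ANGPT1* and *STEAP4*, likewise outside the rule, had -1.28 (SE 0.756) and -0.86 (SE 0.491), and -0.40 and -0.54 without P617 and P1541. *ANGPT1* lay at a mean of 8.62 normalized counts. *HIGD1B* had 1.04 (SE 0.488), *GUCY1B3* 0.39 (SE 0.360) and *ANPEP* 0.18 (SE 0.634). Without P617 and P1541 *GUCY1B3* was at -0.08, *ANPEP* at -0.56, *S1PR3* at 0.59 and *GJC1* at -0.32. *AOC3*, an amine oxidase found in smooth muscle as well, had -0.98 (SE 0.638), and -0.17 without P617 and P1541.

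The Notch genes, which carry signals between endothelium and mural cells, had 12 of 15 higher in NP, a median of 0.45 and 6 genes at an unadjusted p under 0.05, all higher in NP. *DLL4* and *NOTCH4*, which are made mainly by endothelium, had 1.04 (SE 0.352, adjusted p = 0.459) and 1.31 (SE 0.401, adjusted p = 0.400). *NOTCH1* had 0.65 (SE 0.248, adjusted p = 0.514) and *JAG1*, a ligand through which endothelium signals to mural cells, 0.45 (SE 0.178, adjusted p = 0.546). *NOTCH2* and *LFNG* had -0.12 (SE 0.239) and 0.43 (SE 0.481), and 0.06 and -0.21 without P617 and P1541. Without P617 and P1541 *DLL4* was at 0.65, *NOTCH4* at 0.81, *NOTCH1* at 0.29 and *JAG1* at 0.41, and the median of the list was 0.29.

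Markers of other cell types moved in the same contrast. All 15 endothelial markers, *PECAM1* included, were higher in NP, 14 of them at an unadjusted p under 0.05, with a median of 0.74, and the summed level was 6127 to 18160 in P and 11510 to 20530 in NP. *CDH5*, *TIE1* and *ERG* had 0.96 (SE 0.261, adjusted p = 0.330), 0.94 (SE 0.261, adjusted p = 0.335) and 1.00 (SE 0.279, adjusted p = 0.335). *VWF* had 1.06 (SE 0.347), *EMCN* 0.65 (SE 0.275) and *KDR* 0.56 (SE 0.292). Without P617 and P1541 the median of the endothelial markers was 0.62. In those 9 cows *CDH5* was at 0.68, *TIE1* at 0.71, *ERG* at 0.78, *VWF* at 0.62, *EMCN* at 0.47 and *KDR* at 0.35. All 12 smooth muscle markers, the joint actin entry included, were higher in P, 3 of them at an unadjusted p under 0.05, with a median of -1.32. These were *DES* at -1.48 (SE 0.647), *MYH11* at -1.35 (SE 0.617) and *TPM1* at -1.22 (SE 0.558), and *TAGLN* had -1.54 (SE 0.736). The summed level was 98990 to 823200 in P and 48770 to 333200 in NP, and without P617 and P1541 the median was -0.68.

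Stromal fibroblasts, another source of *PDGFRB*, also showed higher marker levels in NP. Of 14 markers 12 were higher in NP and 4 had an unadjusted p under 0.05, with a median of 0.55, or 0.92 without P617 and P1541. The 2 higher in P, named after their values were seen, were *DPT* at -0.68 (SE 0.651) and *HOXA10* at -0.04 (SE 0.407). Without P617 and P1541 they were at 0.09 and 0.54. The groups did not overlap for *DCN*, the proteoglycan decorin, at 0.68 (SE 0.272, adjusted p = 0.554), nor for *FBLN1*, fibulin 1, at 0.67 (SE 0.133, adjusted p = 0.241). *MMP2* had 0.84 (SE 0.308) and *LUM*, named after its value was seen, 0.80 (SE 0.365), and the abundant collagens *COL1A1*, *COL1A2* and *COL3A1* had 0.39 (SE 0.424), 0.66 (SE 0.339) and 0.71 (SE 0.409). The summed level was 135200 to 388700 in P and 278500 to 387600 in NP.

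The 14 epithelial markers had 11 higher in NP, with a median of 0.29 that became -0.47, with 0 higher in NP, once P617 and P1541 were left out. *KRT7*, at -1.03 (SE 0.373, adjusted p = 0.496), was the 1 epithelial marker with an unadjusted p under 0.05. *EPCAM*, *KRT8*, *CLDN7* and *SOX17* had 0.45 (SE 0.623), 0.11 (SE 0.450), 0.77 (SE 0.696) and 0.63 (SE 0.725). Of 13 immune cell markers 12 were higher in NP, with a median of 0.43, and 4 had an unadjusted p under 0.05. These were *CD14* with 0.84 (SE 0.245), *CSF1R* with 1.07 (SE 0.333), *CD68* with 0.93 (SE 0.403) and *PTPRC* with 0.44 (SE 0.195), while *KIT* and *LCP1* had 0.27 (SE 0.520) and 0.39 (SE 0.468). Without P617 and P1541 *KIT* and *LCP1* were at -0.50 and -0.24. Of the 8 red blood cell markers listed, 0 reached a mean of 5 normalized counts. The parts of the endothelial, fibroblast and muscle markers in the *PDGFRB* and *RGS5* differences were not tested beyond the models with *PECAM1*, the ACTG2; ACTA2 entry and the epithelial markers given above.

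**Figure D5:**
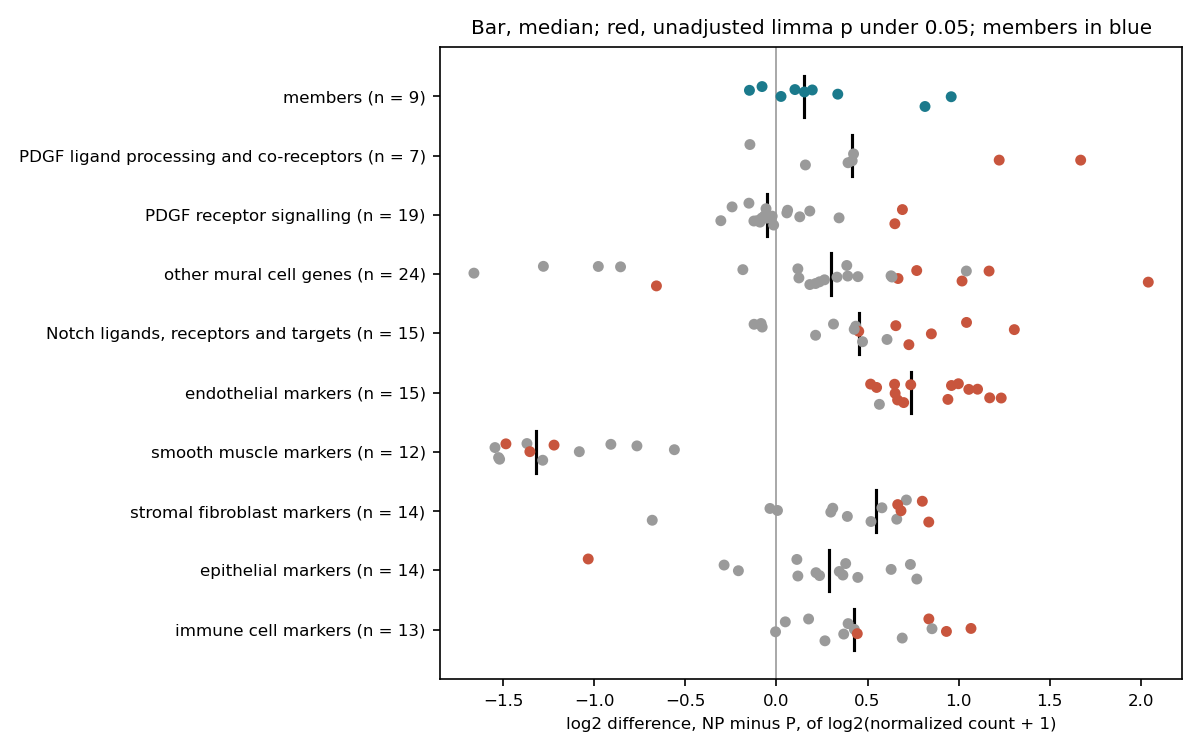
Log2 difference, NP minus P (x axis), of each tested gene of the members and of each list (y axis, with the number of genes), the bar being the median of the list; members are blue and other genes are red at an unadjusted limma p under 0.05 and grey otherwise. All 15 endothelial markers lie above 0 (median 0.74), all 12 smooth muscle markers below 0 (median -1.32), and the members have a median of 0.15. Without P617 and P1541, not drawn here, these medians were 0.62, -0.68 and 0.45.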

How the data were processed

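RNA-Seq of endometrial biopsies from 11 cows was analysed from the authors' processed table. Per the study's methods, the authors filtered reads with Seqyclean, aligned them locally to a masked UMD3.1 genome with Bowtie2 2.1.0, counted reads per gene with HTSeq 0.5.4p2 and normalized with DESeq2 1.12.1. The annotation and the use of strand are not given in the sources used here, so overlapping genes and close copies are uncertain. The authors deposited the values as a signal that is never negative, normalized counts per gene and cow. In each cow 100% of the values were whole multiples of 1 read within a tolerance of 0.001, and 1 read was worth 0.784 to 1.14 normalized counts.

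The test was limma 3.58.1 in R 4.3.3 on log2(value + 1), with a mean of at least 5 over all cows, Benjamini-Hochberg adjustment at 0.1 and no covariate. Alternatives were edgeR 4.0.16, DESeq2 1.42.0 without a prior and limma-voom on recovered reads, other scalings, pseudocounts of 0.5 and 5, other filters, covariates and leaving out cows. Beside the members and reference entries, the text names the 10 genes most like PDGFRB, the 5 most like RGS5 and, in each list, the 3 genes highest in mean and the 3 with the largest absolute limma statistic. The values of 1 gene under this rule are not reported here. Members and lists were chosen with earlier results of these data known. The tests were checked on simulated data. Cows are separate animals with 1 library each. Genome coordinates and sequences are not given here.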

Additional observations from a re-analysis of the deposited data

Results flagged for a closer look

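In 22 groups of cows, formed by the 9 members and the reference entries in P and in NP, the highest or lowest cow was set against the others by Dixon's criterion at 95%, which by chance alone marks about 1 group in 20. In 2 groups a cow stood apart. *RGS5* in P904 was 2910 normalized counts, the highest of the P cows, with the next at 1115 and a gap of 0.821 of the range, against a critical value of 0.625. The summed endothelial markers of P904 were also the highest among the P cows, at 18160, and their part in the *RGS5* value was not tested. *PDGFA* in P617 was 498 normalized counts, the lowest of the P cows, with the next at 624 and a gap of 0.667 of the range. P617 also had the lowest summed epithelial markers of all cows, at 3218, and their part in the *PDGFA* value was not tested.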

How the results depend on the processing

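The *PDGFRB* difference kept its direction under all 22 alternatives, at 0.74 to 0.85, or 0.76 to 0.87 with 1 cow left out. The members higher in NP numbered 6 to 8, or 5 to 8 with 1 cow left out. The *PDGFRA* difference went to 0.60 with the ACTG2; ACTA2 entry in the model. Genes called over the whole table numbered 201 by DESeq2 without a prior, 17 without P617 and P1541, and 0 to 171 with 1 cow left out, the highest without P904. Members that varied with either reference entry numbered 0 to 2 with 1 cow left out (2 without NP238), 0 without P617 and P1541, 0 with the group means left in and 0 by Spearman's rho. The r of *PDGFRB* with *PECAM1* changed sign, being 0.28 without P617 and P1541 (adjusted exact permutation p = 0.791). It was -0.51 to 0.15 with 1 cow left out, the highest without P1541. With the group means left in it was 0.51 (adjusted p = 0.300 by a permutation test with random shuffles over all cows). The cause of these changes was not tested. The direction held for 55 to 70 of the 70 genes named by the rule above, and for 58 without P617 and P1541. No paired analysis was possible because cow numbers are not shared between the groups. With 6 and 5 cows, differences smaller than the spread among cows were not detectable, and larger ones could also go uncalled. *PDGFRB*, at 0.82 with an SD of 0.178 within groups, was not called by limma over all cows. Counting error adds to the spread for genes near a mean of 5.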
